A study of Rattus norvegicus with 12 samples.

Results

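Growth factor receptor genes were followed in rat INS-1 832/13 cells that had been transduced with an adenovirus for GFP or for ChREBPβ. The genes were Gfra1, Gfra3, Ret, Erbb2, Erbb3, Egfr, Met, Igf1r, Insr and Fgfr1, 10 of the 28727 named entries of the deposited count table. They were chosen by gene name, and the names were chosen from their values in these same 12 libraries, among them lower Gfra1 and higher Ret under ChREBPβ. Their values are therefore given as a description and support no statement about receptors as a class. Where the call rule given below was applied to them, its outcome is part of that description. Of the 10 genes, 8 passed the filter on low counts that left 14669 genes tested, and Gfra3 and Erbb2 did not.

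Most of these genes encode receptor tyrosine kinases, which sit in the plasma membrane and act in pairs. When a growth factor binds, they phosphorylate one another and the adaptor proteins that pass the signal to the Ras-MAP kinase and PI3 kinase-Akt cascades. Ret is unusual in that its ligands of the GDNF family are first held by a GFRα co-receptor anchored to the membrane, GFRα1 for GDNF and GFRα3 for artemin, so that Ret and its co-receptor are needed together. In the β-cell, insulin and IGF-1 receptors, the HGF receptor Met and receptors of the EGF and FGF families are known for roles in growth, survival and insulin secretion.

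The INS-1 832/13 line is a clonal insulinoma line that secretes insulin, and a single line was used. Cells carrying either virus were kept in 2 mM or 11 mM glucose for 48 h, which gave 4 groups of 3 libraries (a, b and c): GFP at 2 mM, GFP at 11 mM, ChREBPβ at 2 mM and ChREBPβ at 11 mM. ChREBPβ is a shorter form of the glucose-responsive transcription factor ChREBP that lacks the domain holding the protein inactive at low glucose. All 4 groups carry an adenovirus, so there is no group without virus. The study describes its values as averages of independent experiments, and the sample labels give only a letter for each library, without saying what a letter stands for. The p-values set a difference against the spread between libraries of the same group, estimated over all 4 groups together.

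Values are in CPM, the standard unit of counts scaled to a fixed library total, here after TMM scaling, which adjusts the totals for differences in composition. Fold changes came from an edgeR quasi-likelihood fit over all 12 libraries and are given on the log2 scale with their standard errors (SE), and group levels as mean ± SD of 3 libraries. A gene was called where its p, adjusted over all 14669 genes by the Benjamini-Hochberg method, was under 0.05 and its change was at least 1.2-fold. Library totals were 25754488 to 46654823 counts in the GFP libraries and 28595982 to 60531215 in those labelled ChREBPβ. CPM is not divided by transcript length, so levels were not ranked between genes. In bulk RNA, fewer cells that express a gene and less of its RNA per cell cannot be told apart.

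The transcript of the ChREBP gene itself did not follow the label. At 2 mM glucose, Mlxipl stood at 256 ± 19 CPM under GFP and 205 ± 7 CPM under the ChREBPβ label, lower by 0.33 on the log2 scale (SE 0.05, edgeR adjusted p = 2.03e-05). At 11 mM it stood at 207 ± 5 and 188 ± 11 CPM, lower by 0.14 (SE 0.05, under 1.2-fold and not called). The study's virus carried a tagged mouse ChREBPβ, and the build named for the counts is the rat Rnor_6.0. Whether reads of the viral insert were counted for this gene is not given in the sources used here. Txnip, a glucose-induced target of ChREBP, was higher in the ChREBPβ-labelled libraries by 4.12 at 2 mM (SE 0.05) and by 0.93 at 11 mM (SE 0.05), and Pklr, the glycolytic enzyme pyruvate kinase, by 1.69 (SE 0.05) and 1.08 (SE 0.05). Directions below are those of the libraries labelled ChREBPβ. The summed CPM of 10 β-cell markers was 11544 to 17012 in the GFP libraries and 5432 to 6515 in those labelled ChREBPβ, and 1 of the 10, G6pc2, held at most 2 counts in any library. Gcg, the glucagon gene, made up nearly all of the signal of 5 markers of other islet cells, which was 1590 to 1721 with GFP and 431 to 503 with ChREBPβ. The 5 fibroblast markers found in the table summed to at most 0.117 CPM in a GFP library and to 0.481 to 1.11 CPM with ChREBPβ, of which Pdgfrb made up most, and Dcn and Lum were at 0 in all 12 libraries. The 3 blood cell markers summed to 0.376 to 0.867 CPM with GFP and 0.719 to 1.29 CPM with ChREBPβ, with Ptprc at 0 throughout. For 3 endothelial markers the sum was 1.10 to 1.86 CPM with GFP and 0.695 to 1.28 CPM with ChREBPβ. For 5 Schwann and glial markers it was 2.74 to 4.26 CPM with GFP and 2.32 to 3.47 CPM with ChREBPβ. The part of these shifts and of the depth in the receptor values was not tested.

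The upstream sequences of Gfra1 and Ret, the receptor pair with the largest opposite differences, and of Igf1r, whose window held a single E-box, are shown for context. RefSeq windows of the GRCr8 assembly, from 250 bases before to 50 bases after the annotated start, were at hand for 8 of the 10 genes, without Erbb3 and Fgfr1, among 33469 windows in all. The E-box CACGTG, searched on both strands, was found in 6.42% of all windows and in 1 of the 8, Igf1r, at positions -31 to -26 from the start. The GC box GGGCGG, the letters that Sp1-type factors bind, was found on either strand in 33.1% of all windows and in 5 of the 8 (Gfra1, Gfra3, Erbb2, Egfr and Igf1r). The carbohydrate response element, a pair of E-box-like motifs 5 bases apart, was found in 0.0747% of windows and in 0 of the 8. A match here is a description of letters and does not show a binding site. The Gfra1 stretch is chr1:267555812-267556011 on the minus strand and the Ret stretch chr4:153040557-153040756 on the minus strand, each the 200 bases before the start, and the Igf1r stretch is chr1:130959897-130959996 on the plus strand, the 100 bases before the start. All are written 5′ to 3′, with the GC box of Gfra1 and the E-box of Igf1r in capitals.
Gfra1: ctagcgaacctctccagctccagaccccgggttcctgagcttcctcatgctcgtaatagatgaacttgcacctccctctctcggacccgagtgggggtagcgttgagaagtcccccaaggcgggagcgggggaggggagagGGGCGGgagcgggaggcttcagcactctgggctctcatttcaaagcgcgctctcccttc
Ret: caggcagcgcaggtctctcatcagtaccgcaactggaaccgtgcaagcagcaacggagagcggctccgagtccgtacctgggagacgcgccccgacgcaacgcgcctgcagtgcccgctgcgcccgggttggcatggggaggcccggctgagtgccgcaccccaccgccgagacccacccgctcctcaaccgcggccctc
Igf1r: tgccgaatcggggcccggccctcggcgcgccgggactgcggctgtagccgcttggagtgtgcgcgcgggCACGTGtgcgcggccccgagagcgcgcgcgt

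Gfra1, the co-receptor that binds GDNF, was the member with the largest difference between the viruses. It stood at 11.2, 13.4 and 9.10 CPM in libraries a, b and c with GFP at 2 mM and at 11.5, 11.4 and 10.8 CPM for GFP at 11 mM. Under ChREBPβ it stood at 3.29, 2.80 and 3.08 CPM at 2 mM and at 4.16, 3.63 and 3.73 CPM at 11 mM. Every one of the 6 GFP libraries was above all 6 ChREBPβ-labelled libraries, and the lowest GFP value (9.10) was library c at 2 mM. The log2 difference was -1.89 at 2 mM (SE 0.13, 3.72-fold lower) and -1.55 at 11 mM (SE 0.12, 2.92-fold lower). Glucose left the GFP mean at 11.2 CPM in both groups, with SDs of 2.2 at 2 mM and 0.4 at 11 mM. Within ChREBPβ the 3 libraries at 11 mM lay above the 3 at 2 mM, by 0.34 on the log2 scale (SE 0.13), which did not meet the call rule.

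Ret, the signalling kinase that GFRα1 presents GDNF to, went the other way. It stood at 38.1, 36.3 and 37.3 CPM for GFP at 2 mM and at 65.9, 58.0 and 63.1 CPM for ChREBPβ at 2 mM. At 11 mM it stood at 29.5, 32.3 and 30.5 CPM with GFP and at 47.9, 46.1 and 44.1 CPM with ChREBPβ. The 4 groups did not overlap, in the order GFP at 11 mM, GFP at 2 mM, ChREBPβ at 11 mM and ChREBPβ at 2 mM. The ChREBPβ difference was 0.74 at 2 mM (SE 0.06, 1.67-fold higher) and 0.58 at 11 mM (SE 0.06, 1.50-fold higher). Higher glucose went with less Ret under both viruses, by -0.28 with GFP (SE 0.06) and by -0.43 with ChREBPβ (SE 0.05). The GFP glucose difference fell short of the call rule without GFP 2 mM library a (-0.26) or GFP 11 mM library a (-0.25). Gfra1 was thus lower under ChREBPβ at both glucose levels while its partner kinase was higher, and Ret alone of the pair was called for glucose.

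**Figure D1:**
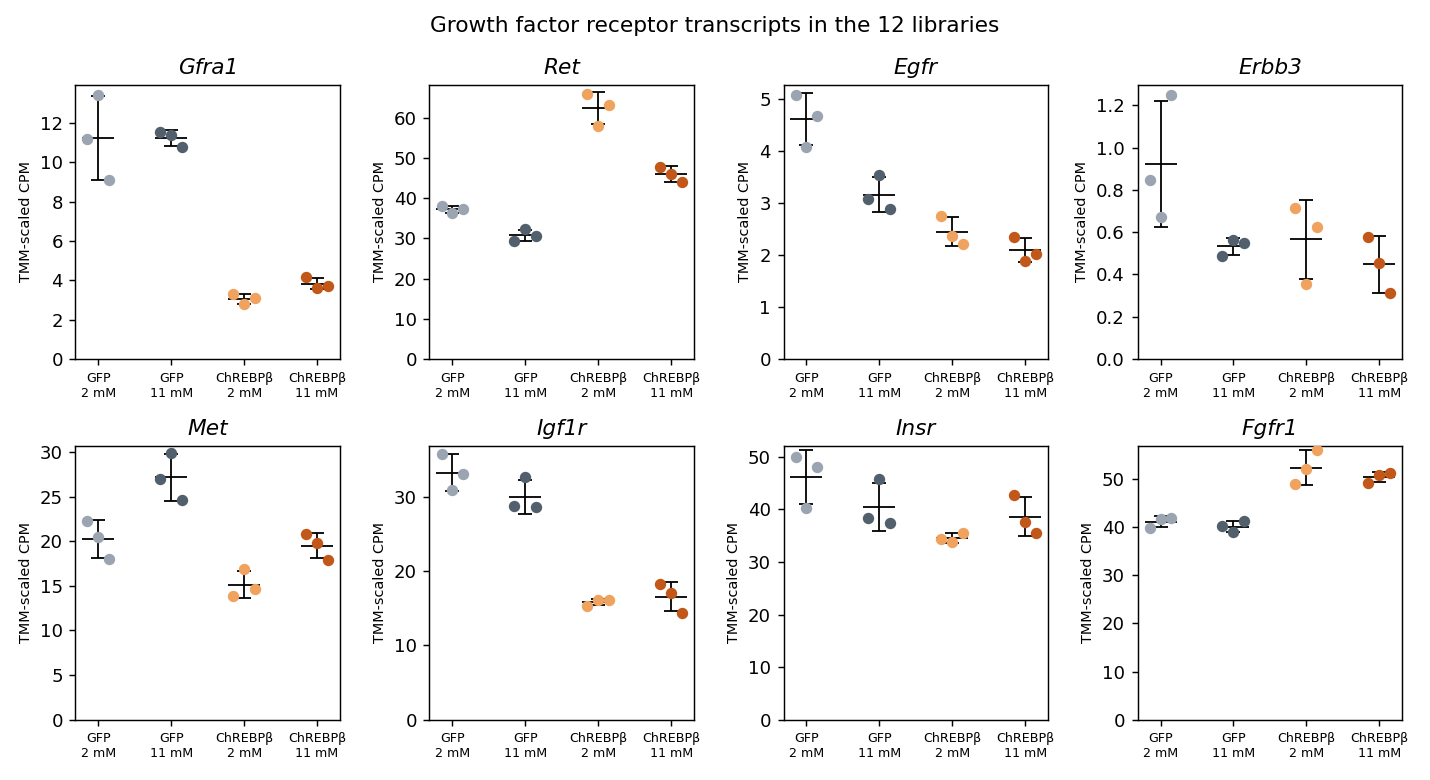
TMM-scaled CPM (vertical axes, each from 0) of the 8 tested receptor genes in the 4 groups of virus and glucose; points are the 3 libraries of a group, bars the mean and SD. Gfra1 sits between 9.10 and 13.4 CPM in the GFP libraries and between 2.80 and 4.16 CPM in those labelled ChREBPβ, while Ret and Fgfr1 are higher in the ChREBPβ-labelled libraries.

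Set against each other within a library, the counts of Ret and Gfra1 give a ratio that needs no scaling between libraries. There were 3.40, 2.71 and 4.10 Ret counts for each Gfra1 count with GFP at 2 mM (mean 3.40 ± 0.69) and 2.55, 2.83 and 2.83 with GFP at 11 mM (mean 2.74 ± 0.16). With ChREBPβ the ratio was 20.4 ± 0.4 at 2 mM and 12 ± 0.6 at 11 mM, the single libraries running from 20.0 to 20.7 and from 11.5 to 12.7. All 6 ChREBPβ-labelled libraries lay above all 6 GFP libraries, and the ChREBPβ groups did not overlap each other. The higher ratio with ChREBPβ follows from the choice of the genes, made with lower Gfra1 and higher Ret under ChREBPβ known. It is no further result. The ratio is one of counts, not corrected for the length of either transcript, so that it describes the shift between groups and not how many Ret molecules there were for each Gfra1 molecule.

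**Figure D2:**
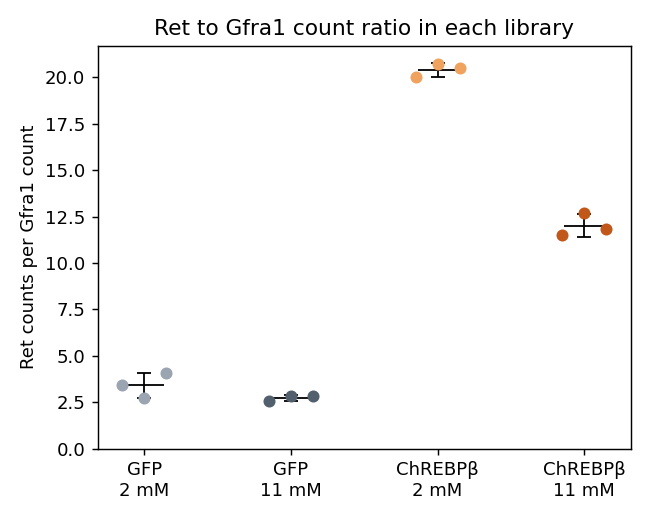
Ret counts per Gfra1 count (vertical axis, from 0) in each of the 12 libraries by group; points are libraries, bars the mean and SD of 3. The ratio lies between 2.55 and 4.10 in the GFP libraries, between 20.0 and 20.7 with ChREBPβ at 2 mM and between 11.5 and 12.7 with ChREBPβ at 11 mM.

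Gfra3, the artemin co-receptor, was barely counted: there were 2 counts in all, 1 in each of 2 libraries, and 10 libraries were at 0. A count of 0 allows up to 3 counts, or 0.0512 CPM in the largest library and 0.11 CPM in the smallest, and this limit covers counting error only. No difference between groups was detectable at this depth.

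In the EGF receptor family, Egfr was measured well enough to compare and the other members stood low. Egfr, the receptor for EGF, TGFα and HB-EGF, stood at 5.07, 4.08 and 4.68 CPM for GFP at 2 mM and at 3.07, 3.53 and 2.88 CPM for GFP at 11 mM. With ChREBPβ it stood at 2.76, 2.37 and 2.22 CPM at 2 mM and at 2.35, 1.89 and 2.03 CPM at 11 mM. The GFP libraries at 2 mM were highest and apart from every other group, and the ChREBPβ groups overlapped each other. The ChREBPβ difference was -0.93 at 2 mM (SE 0.15) and -0.59 at 11 mM (SE 0.15), and the glucose difference was -0.54 with GFP (SE 0.15) and -0.21 with ChREBPβ (SE 0.15, not called).

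Erbb3, a neuregulin receptor with little kinase activity of its own, stood at 0.922 ± 0.297 CPM for GFP at 2 mM, 0.533 ± 0.041 with GFP at 11 mM, 0.566 ± 0.187 with ChREBPβ at 2 mM and 0.449 ± 0.135 with ChREBPβ at 11 mM. The highest library was c of GFP at 2 mM, at 1.25 CPM, and the viruses overlapped at both glucose levels. Its ChREBPβ difference of -0.74 at 2 mM carried an SE of 0.34 and was not called, but it met the rule without GFP 2 mM library b (-0.94). Its glucose difference with GFP was -0.79 (SE 0.34), with groups that did not overlap, and was not called either, nor were its other comparisons. Erbb2, the family member that binds no ligand and pairs with the others, had 41 counts in all, 0 to 7 in a library and at most 0.161 CPM, and was not tested.

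Met, the receptor of hepatocyte growth factor, differed with virus and with glucose. It stood at 22.2, 20.4 and 18 CPM for GFP at 2 mM and at 27.0, 29.9 and 24.7 CPM for GFP at 11 mM. With ChREBPβ it stood at 13.9, 16.8 and 14.6 CPM at 2 mM and at 20.8, 19.8 and 17.9 CPM at 11 mM. The GFP libraries at 11 mM were the highest of all, the ChREBPβ libraries at 2 mM the lowest, and the ChREBPβ group at 11 mM overlapped the GFP group at 2 mM. The ChREBPβ difference was -0.41 at 2 mM (SE 0.09) and -0.47 at 11 mM (SE 0.09), and the glucose difference was 0.43 with GFP (SE 0.09) and 0.36 with ChREBPβ (SE 0.09). The last of these fell short of the call rule without ChREBPβ 2 mM library a (0.31) or c (0.33), or ChREBPβ 11 mM library a (0.31) or b (0.35). Among the 8 tested members Met alone was called as higher at 11 mM than at 2 mM glucose.

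Igf1r, the receptor of IGF-1 and IGF-2, had the largest difference between the viruses after Gfra1. It stood at 35.8, 31.0 and 33.0 CPM for GFP at 2 mM and at 28.7, 32.6 and 28.7 CPM for GFP at 11 mM. With ChREBPβ it stood at 15.4, 16.1 and 16.1 CPM at 2 mM and at 18.2, 17 and 14.4 CPM at 11 mM. All 6 ChREBPβ-labelled libraries lay below all 6 GFP libraries, and the 2 glucose levels overlapped under each virus. The ChREBPβ difference was -1.06 at 2 mM (SE 0.08, 2.09-fold lower) and -0.86 at 11 mM (SE 0.08), and the glucose differences of -0.15 with GFP and 0.06 with ChREBPβ (SE 0.08 each) were not called. The single E-box in its window, shown above, is a match of letters, and its part in these values was not tested.

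Insr, the insulin receptor, differed less than its relative Igf1r. It stood at 49.9, 40.3 and 48.1 CPM for GFP at 2 mM, against 34.3, 33.9 and 35.6 CPM for ChREBPβ at 2 mM, with no overlap. At 11 mM it stood at 38.3, 45.7 and 37.3 CPM with GFP and 42.8, 37.6 and 35.6 CPM with ChREBPβ, and these groups overlapped. The ChREBPβ difference was -0.41 at 2 mM (SE 0.08) and -0.06 at 11 mM (SE 0.08, not called). The difference between those effects, 0.35 (SE 0.12), did not meet the call rule with all libraries and met it without GFP 2 mM library b (0.44) or GFP 11 mM library b (0.44). The same library b stood apart from a and c in both GFP groups, below them at 2 mM and above them at 11 mM, and the glucose difference with GFP of -0.19 (SE 0.08, not called) became -0.28 and was called without either of them.

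Fgfr1, a receptor of the FGF family, was higher in the ChREBPβ-labelled libraries and flat over glucose. It stood at 39.9, 41.7 and 42.0 CPM for GFP at 2 mM and at 40.2, 38.9 and 41.3 CPM for GFP at 11 mM. With ChREBPβ it stood at 48.9, 52.0 and 56.1 CPM at 2 mM and at 49.2, 50.8 and 51.3 CPM at 11 mM. Every ChREBPβ-labelled library was above every GFP library. The ChREBPβ difference was 0.35 at 2 mM (SE 0.05) and 0.33 at 11 mM (SE 0.05), and with scaling to plain library totals these became 0.25 and 0.24, under 1.2-fold. The glucose differences were -0.04 with GFP and -0.06 with ChREBPβ (SE 0.05 each).

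**Figure D3:**
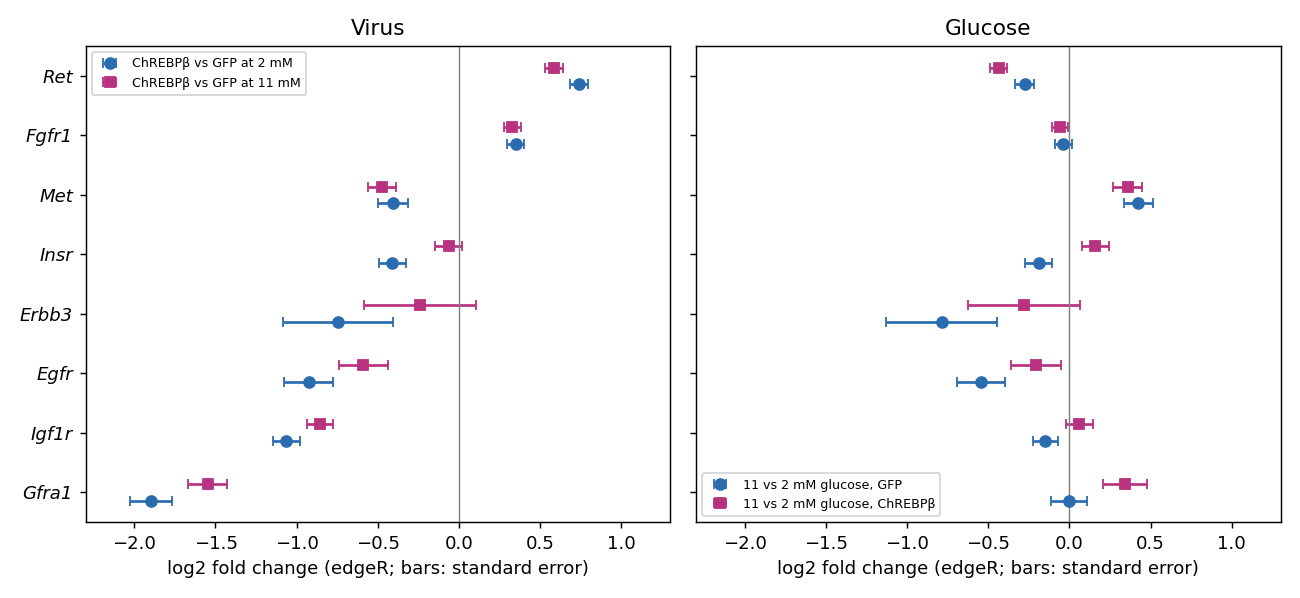
Fitted log2 fold changes (horizontal axes) of the 8 tested receptor genes with standard errors as bars, for ChREBPβ against GFP at each glucose level on the left and for 11 mM against 2 mM glucose under each virus on the right. Gfra1 at -1.89 and -1.55 and Igf1r at -1.06 and -0.86 lie farthest to the left for the virus, Ret and Fgfr1 lie to the right, and on the glucose side Met lies to the right and Ret to the left under both viruses.

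Counted over the 8 tested members, the call rule was met at 2 mM by 7 for ChREBPβ against GFP, 2 higher (Ret and Fgfr1) and 5 lower (Gfra1, Egfr, Met, Igf1r and Insr). Of all 14669 tested genes, 44.1% were called in that comparison, 21.0% higher and 23.2% lower. At 11 mM 6 members met the rule, the same genes without Insr, where 33.4% of all genes were called, 14.3% higher and 19.1% lower. The groups did not overlap for 7 members at 2 mM, where this held for 63.3% of all tested genes, and for 6 at 11 mM, where it held for 56.1%. For glucose, 3 members were called with GFP (Ret, Egfr and Met) against 20.2% of all genes, and 2 with ChREBPβ (Ret and Met) against 3.87% of all genes. The median log2 difference of the members between the viruses was -0.58 at 2 mM and -0.36 at 11 mM, with -0.02 for all tested genes at each. Since these contrasts chose the members, nothing is read from the counts. For the difference between the ChREBPβ effects at 11 mM and 2 mM, edgeR called 0 of the 8 against 6.31% of all genes, with 1 member (Insr) at an unadjusted p under 0.05, and DESeq2 called 1 (Insr, 0.36).

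Ligands, further receptors and adaptors of the same families were taken from 12 lists by role, which were drawn up with earlier results of these data known. Of 141 genes listed 107 were tested, and between ChREBPβ and GFP 26 of them rose and 33 fell at 2 mM and 24 rose and 32 fell at 11 mM, or 55.1% and 52.3% of those tested, where 44.1% and 33.4% of all genes were called. Some of the tested genes passed the filter on low counts only through the libraries of the virus under which they stood higher. Not all of these are named below. The counts of rises and falls are therefore a description. The median log2 difference of the tested genes was -0.06 at 2 mM and 0.004 at 11 mM. Between 11 mM and 2 mM glucose 19 changed with GFP (6 up, 13 down), 17.8% against 20.2% of all genes, and 7 with ChREBPβ (2 up, 5 down), 6.54% against 3.87%. All p-values below are adjusted ones from edgeR.

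In the GDNF family, 1 of 4 tested ligands fell at 2 mM and 2 at 11 mM, and 0 rose. Gdf15, a distant member that acts through the GFRAL co-receptor, went from 15.6 ± 0.45 to 10.4 ± 0.80 CPM at 2 mM, a fall of 0.58 (SE 0.08, adjusted p = 3.73e-06), and fell by 0.41 at 11 mM (SE 0.08). Nrtn, encoding neurturin, the ligand of GFRα2, stood at 32.5 ± 2.5 and 27.2 ± 2.3 CPM at 2 mM (-0.26, SE 0.07, under 1.2-fold) and fell by 0.32 at 11 mM (SE 0.07, adjusted p = 0.000892). Artn at 0.298 to 0.429 CPM and Pspn at 1.37 to 1.56 CPM, the group means of the artemin and persephin genes, were not called in either comparison. Gdnf itself had 3 counts and Gfral 4 counts over all 12 libraries, too few to test.

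The 4 tested receptors of the family beside Gfra1 and Ret all changed at 2 mM, 1 up and 3 down, and 3 changed at 11 mM, 1 up and 2 down. Gfra2 went from 1.09 ± 0.07 to 0.518 ± 0.17 CPM at 2 mM, a fall of 1.08 (SE 0.30, adjusted p = 0.00493), and fell by 0.85 at 11 mM (SE 0.28, adjusted p = 0.0179), a call lost without GFP 11 mM library a (-0.79) or b (-0.78) or ChREBPβ 11 mM library a (-0.66). Gfra4, the persephin co-receptor, rested on 25 and 10 counts in the groups at 2 mM, where it was lower by 1.90 (SE 0.70). It passed the filter on low counts only through the GFP libraries, so nothing is read from its fall. The call at 2 mM was lost without GFP 2 mM library a (-1.66) or b (-1.84), or ChREBPβ 2 mM library a (-1.57) or b (-1.91). At 11 mM Gfra4 was not called (-1.26, SE 0.53). Ncam1, the adhesion molecule that can also receive GDNF together with GFRα1, went from 119 ± 4 to 75.3 ± 1.0 CPM at 2 mM (-0.66, SE 0.05, adjusted p = 1.72e-09) and fell by 0.42 at 11 mM (SE 0.05). Sdc3, a heparan sulphate proteoglycan that binds GDNF, went the other way, from 79.3 ± 2.2 to 124 ± 3 CPM at 2 mM (0.65, SE 0.04, adjusted p = 5.24e-11) and by 0.54 at 11 mM (SE 0.04).

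Of 7 tested ligands of the EGF receptor family, 1 rose and 2 fell at 2 mM, and 1 rose and 4 fell at 11 mM. Hbegf, the heparin-binding ligand of Egfr, stood at 18.2 ± 0.6 CPM for GFP and 108 ± 2 CPM for ChREBPβ at 2 mM, and at 54.1 ± 3.2 and 142 ± 4 CPM at 11 mM. It rose with ChREBPβ by 2.57 at 2 mM (SE 0.05, adjusted p = 1.45e-18) and by 1.39 at 11 mM (SE 0.05), and with glucose by 1.57 in GFP cells (SE 0.05). The order of the 4 group means of Hbegf was the reverse of that of Egfr, its receptor, although the ChREBPβ groups overlapped for Egfr. These orders are not particular to the pair: Txnip and Pklr had that of Hbegf, and the β-cell marker Pdx1 had that of Egfr. Nrg1, a neuregulin, fell by 1.25 at 2 mM (SE 0.20, adjusted p = 2.07e-05) and by 0.82 at 11 mM (SE 0.18), and Nrg2 by 0.71 at 11 mM (SE 0.14) with -0.09 at 2 mM (SE 0.16, not called). Among 4 tested genes of the list with Erbb4 and the receptor inhibitors, 2 rose at each glucose level and 0 fell. These were Errfi1, a feedback inhibitor that binds the Egfr kinase, by 0.77 (SE 0.05, adjusted p = 7.7e-11) and 0.70 (SE 0.05), and Lrig1, which promotes the loss of EGF-family receptors, by 0.40 (SE 0.05) and 0.49 (SE 0.04).

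Around Met, 5 genes were tested and 3 were called at each glucose level, 2 up and 1 down. Among the 5, Mst1r had 5 and 4 counts with GFP at 2 and 11 mM and 52 and 80 with ChREBPβ. It passed the filter on low counts only through the ChREBPβ-labelled libraries, so nothing is read from its rise. Hgfac, a protease that activates the HGF precursor, fell by 0.60 at 2 mM (SE 0.04, adjusted p = 5.22e-10) and by 0.64 at 11 mM (SE 0.04). Spint1, an inhibitor of such proteases, rose by 0.49 (SE 0.06, adjusted p = 5.35e-07) and 0.56 (SE 0.06).

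Among ligands and receptors of the insulin and IGF arm, 3 of 3 tested genes changed at each glucose level, 1 up and 2 down. Igf2, a ligand of Igf1r, went from 417 ± 6 to 242 ± 8 CPM at 2 mM (-0.78, SE 0.05, adjusted p = 1.39e-11) and from 335 ± 10 to 229 ± 15 CPM at 11 mM (-0.55, SE 0.05). Igf2r, which clears IGF-2 and sorts lysosomal enzymes, rose by 0.45 (SE 0.07, adjusted p = 2.73e-05) and 0.49 (SE 0.07). Insrr, the insulin receptor-related receptor, fell by 0.87 at 2 mM (SE 0.11, adjusted p = 1.11e-06), and at 11 mM its fall of 0.30 (SE 0.12, adjusted p = 0.0385) lost the call with RLE scaling (-0.29), with only the compared groups fitted (-0.30), or without GFP 11 mM library a (-0.30) or b (-0.24) or ChREBPβ 11 mM library b (-0.28) or c (-0.26).

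Of 7 IGF binding proteins, which hold IGFs outside the cell, 5 fell at 2 mM and 4 at 11 mM, and 0 rose. Igfbp7 went from 93.4 ± 2.4 to 51.0 ± 1.2 CPM at 2 mM (-0.87, SE 0.05, adjusted p = 2.74e-12) and fell by 0.90 at 11 mM (SE 0.05). Igfbp3 fell by 0.81 (SE 0.06, adjusted p = 2.05e-09) and 0.63 (SE 0.06). Igfbp2 fell by 0.77 (SE 0.18, adjusted p = 0.00129) and 0.56 (SE 0.19, adjusted p = 0.0174), the second call being lost without GFP 11 mM library c (-0.50) or ChREBPβ 11 mM library c (-0.48). Of 7 adaptors that bind these receptors 3 fell at each glucose level and 0 rose, among them Grb14, an inhibitor of the insulin receptor kinase, by 0.34 (SE 0.09, adjusted p = 0.00324) and 0.45 (SE 0.08).

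In the FGF family, where Fgfr1 was higher, 4 of 5 tested further receptors, co-receptors and adaptors fell at 2 mM and 2 at 11 mM, and 0 rose. Klb, encoding β-klotho, the co-receptor that FGF21 needs, went from 7.74 ± 0.36 to 2.37 ± 0.21 CPM at 2 mM (-1.70, SE 0.12, adjusted p = 1.76e-10) and from 6.32 ± 0.24 to 2.16 ± 0.10 CPM at 11 mM (-1.55, SE 0.11). Fgfr3 fell by 0.76 (SE 0.11, adjusted p = 8.09e-06) and 0.55 (SE 0.11), and Frs3, an adaptor of FGF receptors, by 0.64 at 2 mM (SE 0.10) with -0.25 at 11 mM (SE 0.10, under 1.2-fold). Of 7 tested ligands, 2 rose and 1 fell at each glucose level. Among the 7, Fgf8 had 7 and 3 counts with GFP at 2 and 11 mM and 47 and 49 with ChREBPβ. It passed the filter on low counts only through the ChREBPβ-labelled libraries. Fgf1 fell by 0.32 at 11 mM (SE 0.07, adjusted p = 0.00107), a call lost without ChREBPβ 11 mM library b (-0.26), and stood at -0.16 at 2 mM (SE 0.08, not called).

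**Figure D4:**
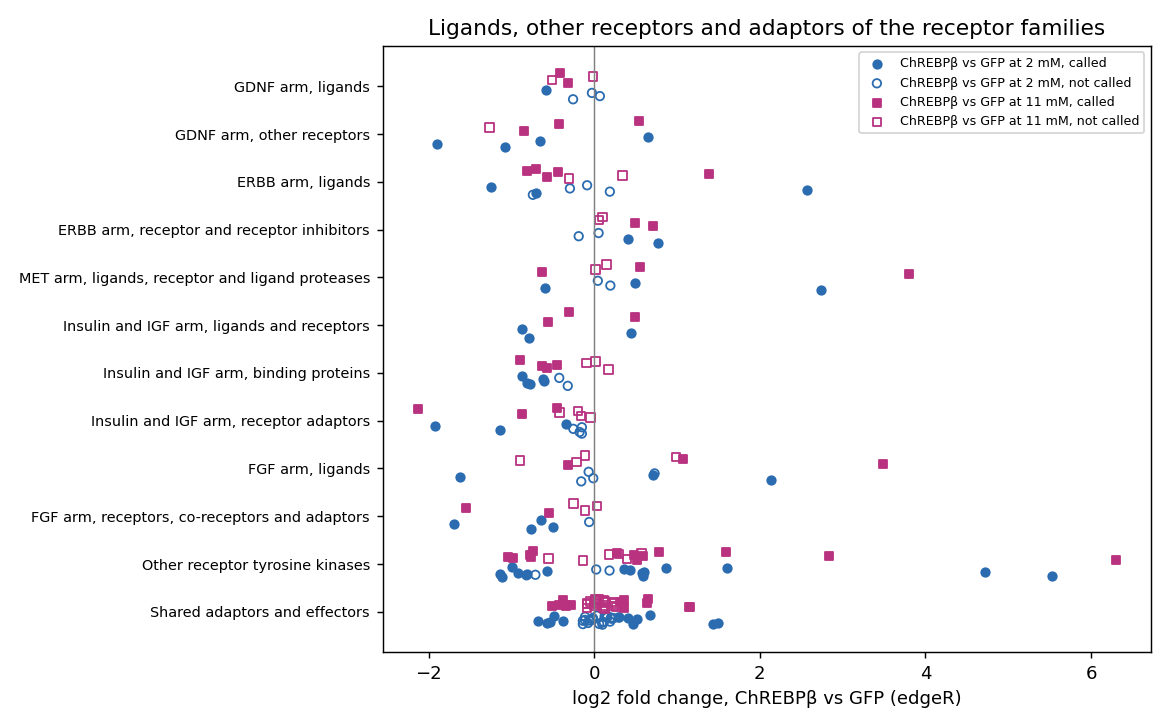
Fitted log2 fold changes (horizontal axis) of ChREBPβ against GFP for the 107 tested ligands, other receptors and adaptors, by list; circles are 2 mM and squares 11 mM glucose, filled where called. Hbegf at 2.57 stands out to the right among the ligands of the EGF family, no filled point lies to the right of 0 for the IGF binding proteins, and the points beyond 3 are genes under 1 CPM whose fitted size depends on few GFP counts.

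Of 19 further receptor tyrosine kinases tested, 9 rose and 6 fell at 2 mM, and 8 rose and 5 fell at 11 mM. Pdgfrb and Axl were among the 19 and passed the filter on low counts only through the ChREBPβ-labelled libraries. The numbers of rises are therefore a description. Alk, a receptor best known from neural development, rose from 2.34 ± 0.26 to 7.03 ± 1.1 CPM at 2 mM (1.60, SE 0.14, adjusted p = 6.69e-09) and by 1.59 at 11 mM (SE 0.13). Pdgfra fell by 1.12 at 2 mM (SE 0.14, adjusted p = 1.08e-06) with -0.13 at 11 mM (SE 0.14, not called).

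Of 35 tested shared adaptors and effectors downstream of the receptors, 8 rose and 5 fell at 2 mM, and 7 rose and 6 fell at 11 mM. The rises of Shc2 and Shc3, adaptors that link activated receptors to Grb2 and Ras, were the largest among those averaging 1 CPM or more, while their relative Shc1 was not called (0.06 at 2 mM, SE 0.04, and 0.11 at 11 mM, SE 0.04). Shc2 went from 209 ± 6 to 563 ± 32 CPM at 2 mM (1.43, SE 0.05, adjusted p = 1.09e-15) and by 1.16 at 11 mM (SE 0.05). Shc3 went from 5.94 ± 0.96 to 16.6 ± 1.3 CPM at 2 mM (1.50, SE 0.12, adjusted p = 1.8e-09) and by 1.15 at 11 mM (SE 0.11). Dok1, an adaptor that restrains Ras signalling, fell by 0.68 (SE 0.11, adjusted p = 1.43e-05) and 0.42 (SE 0.10).

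The genes whose pattern over the 12 libraries was most like that of Gfra1 and of Ret were listed among 10467 tested genes that averaged 5 CPM or more. Likeness was the root mean square difference between the log2 CPM profiles after each was centred on its own mean, so that a smaller value means a closer profile. For Gfra1, whose own profile had a spread of 0.87, these were Gcg (0.174), Pcsk1 (0.176), which encodes a prohormone convertase, Cyp4a8 (0.201), and the sialyltransferase genes St8sia2 (0.203) and St3gal1 (0.217). Their ChREBPβ differences at 2 mM were -1.91, -1.61, -1.67, -1.55 and -1.53. For Ret, with a spread of 0.38, they were the potassium-chloride cotransporter gene Slc12a7 (0.0853), the neurotrophin-3 receptor gene Ntrk3 (0.109), Osbpl1a (0.1145), Cables1 (0.115) and Rab15 (0.124), with ChREBPβ differences at 2 mM of 0.71, 0.58, 0.49, 0.70 and 0.58. The 12 points of each profile share library depth and composition, and scaling to library totals gave the same 5 genes for each.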

How the data were processed

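Gene expression was measured by RNA sequencing of total RNA, amplified before library preparation, in 12 libraries. The authors deposited raw read counts per gene without normalization, and the submitters' processing notes name edgeR and the build Rnor_6.0. The aligner and the use of strand are not given in the sources used here, so that reads of overlapping antisense genes cannot be told apart. Group means that the authors added to the table were not used.

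The members and the gene lists were chosen with earlier results of these data known. 1 unnamed entry (0.0043% to 0.00601% of a library) was left out, and 26 names that a spreadsheet had turned into dates were kept. R 4.3.3 with edgeR 4.0.16 was used: filterByExpr, TMM factors (0.958 to 1.06), glmQLFit and glmQLFTest with the 4 groups as the only factor, tested on simulated data first. An SE is the log2 change over the square root of F. Named were all members, the 2 GDNF lists, the 3 called genes with the largest change per other list at a mean of at least 1 CPM, and the 5 likest genes, except 1 gene that is not reported here. Alternatives used DESeq2 1.42.0, other scalings, filters and thresholds, a replicate block and leaving out each library. Replicates differed by more than sampling noise (chi-square per degree of freedom 3.09 to 17.3 over 12 pairs). Letters a to c were not used to pair the libraries in the main fit, and same-letter libraries were at most weakly correlated.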

Additional observations from a re-analysis of the deposited data

Results flagged for a closer look

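The ChREBPβ effect differed between 2 mM and 11 mM glucose, by the edgeR test of the difference itself over all tested genes, for 4 of the named pathway genes. Over all 107 tested pathway genes 6 were called for this difference, 5.61% against 6.31% of all tested genes. The effect on Hbegf was smaller at 11 mM by 1.18 on the log2 scale (a difference of -1.18, SE 0.07, adjusted p = 1.02e-09). The effect on Shc2 was also smaller at 11 mM (-0.27, SE 0.06, adjusted p = 0.0107), and this difference was under 1.2-fold with DESeq2 (-0.26), with other scalings (-0.25 to -0.26) and without GFP 2 mM library a, GFP 11 mM library a or c, ChREBPβ 2 mM library a or c, or ChREBPβ 11 mM library a (-0.24 to -0.26). The fall of Pdgfra with ChREBPβ at 2 mM was not called at 11 mM (difference 0.98, SE 0.20, adjusted p = 0.00338). In GFP cells Pdgfra was itself lower at 11 mM than at 2 mM glucose (-0.80). The fall of Insrr was smaller at 11 mM (0.57, SE 0.16, adjusted p = 0.0333). That call was lost without GFP 2 mM library c, GFP 11 mM library a or c, ChREBPβ 2 mM library b or c, or ChREBPβ 11 mM library a or b (0.45 to 0.60). From 2 to 11 mM glucose, Insrr went from 13.3 ± 1.9 to 5.49 ± 0.56 CPM with GFP and from 7.30 ± 0.42 to 4.42 ± 0.41 CPM with ChREBPβ.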

How the results depend on the processing

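None of the called values changed direction under any alternative. The members' ChREBPβ calls held under DESeq2, RLE and upper quartile scaling, other filters, the likelihood ratio test and leaving out each library. Scaling to library totals shifted the median of all genes by -0.10 at 2 mM and -0.08 at 11 mM and put Fgfr1 under 1.2-fold. A test against 1.2-fold lost Fgfr1 at both glucose levels and Met at 2 mM. Erbb3, not called in the report at 2 mM, was called with upper quartile factors (-0.80), library totals (-0.84), at least 10 counts in every library (-0.75) and the likelihood ratio test (-0.74), which also called its glucose difference with GFP (-0.79). With a 2-fold minimum, 2 members and 17 pathway genes were called for ChREBPβ at 2 mM, 1 and 12 at 11 mM, 0 and 5 for glucose with GFP, 0 and 1 for glucose with ChREBPβ, and 1 pathway gene for the difference of the effects. A test against 1.2-fold left 0 members and 8 pathway genes for glucose with GFP, 0 and 3 with ChREBPβ and 2 pathway genes for the difference, and no minimum fold gave 37 pathway genes for glucose with GFP. Insr was called for the difference of the effects under DESeq2, no filter and the likelihood ratio test (1 member each). Leaving out 1 library gave 1 to 2 members and 4 to 8 pathway genes for glucose with ChREBPβ, and 0 to 1 members and 3 to 8 pathway genes for the difference. The 4 came without ChREBPβ 2 mM library c, and the 3 without that library, GFP 11 mM library c or ChREBPβ 11 mM library a. Deviations of same-letter libraries from their group means had correlations of -0.11 to 0.06 (18 pairs). Between the groups other than GFP at 11 mM these were weak but all positive, 0.01 to 0.06. With the letters as a replicate block, 7 and 6 members and 58 and 55 pathway genes were called for ChREBPβ at 2 and 11 mM. An order of members by level per length was not run, because transcript lengths were not at hand.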

Other observations

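Pdgfrb, Axl and Mst1r, 3 receptor tyrosine kinases under the level used for naming, were picked after their values were seen. All 3 passed the filter on low counts only through the ChREBPβ-labelled libraries, so their counts are a description. Pdgfrb, a platelet-derived growth factor receptor, had 1 count over the 3 GFP libraries at 2 mM and 1 over those at 11 mM, against 84 and 140 counts over the libraries labelled ChREBPβ, where it averaged 0.656 ± 0.262 and 0.824 ± 0.197 CPM. Axl, a receptor of the TAM family that binds Gas6, had 2 and 17 counts with GFP and 91 and 162 counts with ChREBPβ, or 0.626 and 0.953 CPM. Mst1r, the receptor of macrophage-stimulating protein and a relative of Met, had 5 and 4 counts with GFP and 52 and 80 counts with ChREBPβ. Pdgfrb is also on the list of fibroblast markers, whose sum was at most 0.117 CPM in a GFP library and 0.481 to 1.11 CPM with ChREBPβ. On that list Col1a1 had 4 and 4 counts with GFP and 11 and 12 with ChREBPβ, Col3a1 had 1 count in all, and Dcn and Lum were at 0 in all 12 libraries. The part of such cells in these values was not tested.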
